A study of Homo sapiens with 8 samples.

Results

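The IER genes, ARC, MAFF, CSRNP1 and PHLDA1, all immediate-early genes, were followed through a serum pulse in HCT116. HCT116 is a human line established from a colorectal carcinoma. The 8 members, IER2, IER3, IER5, IER5L, ARC, MAFF, CSRNP1 and PHLDA1, were matched by gene symbol to the array annotation. All were measured, out of 18417 genes tested. They were chosen with earlier results of these data known, so shares over all genes beside their counts are a description. Total RNA was measured on 8 Affymetrix arrays in 4 groups of 2: shCDK8 cells with 30 min of serum, shCDK8 cells starved, shControl cells with 30 min of serum, and shControl cells starved. shCDK8 cells expressed a short hairpin RNA against CDK8, the kinase of the detachable kinase module of Mediator, and shControl cells a control hairpin. Every culture had first gone 40 h without serum, and the serum groups then received McCoy's medium with 10% fetal bovine serum. With a single hairpin per arm, the knockdown and any other difference between the lines cannot be told apart. Whether duplicates are separate cultures is not in the labels, and the p-values therefore reflect how far these samples varied, which could be technical spread alone.

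Immediate-early genes are transcribed within minutes of a growth stimulus from factors already present in the cell, chiefly serum response factor with its ETS partners and CREB, which ERK and other kinases phosphorylate. Their mRNAs and proteins are mostly short-lived, so the response is a brief pulse. Mediator links such factors to RNA polymerase II, and its kinase module can act on that step in either direction.

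Levels below are log2 values from RMA (background correction, quantile normalization and probe set summary), n is 2 arrays per group throughout, and changes are differences of log2 levels with the standard error (SE) of the model. A gene is said to have risen or fallen where limma's two-sided test gave an adjusted p below 0.05 over all genes. RNA of whole cultures was measured, so fewer expressing cells and less RNA per expressing cell cannot be told apart. The array medians lay between 7.07 and 7.11, and duplicates correlated with r between 0.997 and 0.998 across genes. In serum-treated shCDK8 cells array 2 still read above array 1 for IER2, CSRNP1, MAFF and IER3. It also did so for FOS (11.16 and 11.39) and ATF3 (8.78 and 9.46). It read below array 1 for IER5, IER5L and PHLDA1, and ARC was level (7.67 and 7.68). Differences of such genes that use these arrays are therefore not independent of one another. The probe set that covers CDK8, 7968199, is also paired with ADRA1B. It read 7.04 and 7.06 in serum-treated and 7.09 and 6.99 in starved shCDK8 cells, against 9.22 and 9.19 in serum-treated and 9.23 and 9.20 in starved shControl cells, a 4.53-fold lower level in starved and a 4.45-fold lower level in serum-treated shCDK8 cells. EPCAM, an epithelial surface marker, read between 11.68 and 11.83 on every array. Of the other colonic epithelial markers, KRT20 read 5.76 to 6.12, VIL1 5.38 to 5.77 and LGALS4 6.16 to 6.53, below the array medians. The mean epithelial marker level lay between 9.05 and 9.16 on the shCDK8 arrays and between 9.01 and 9.06 on the shControl arrays. Of 10 colonic epithelial, 10 mesenchymal, 8 blood and endothelial and 10 neuronal markers measured, none passed with serum in either line, and 1 mesenchymal marker, COL1A1, rose in the average of the lines (log2 0.34, adjusted p = 0.0292). Between the lines, 3 epithelial markers rose and 1 fell in shCDK8 cells after serum, and 2 rose and 1 fell in starved cells. At both times 2 mesenchymal markers and 1 neuronal marker rose. Of all genes, 7.7% rose and 6.54% fell after serum, and 7.13% rose and 6.28% fell in starved cells. The mean mesenchymal marker level lay between 5.94 and 6.02 on the shCDK8 arrays and between 5.80 and 5.88 on the shControl arrays, and the mean neuronal level between 6.61 and 6.71 against between 6.55 and 6.65. Their part in the line differences below was not tested.

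The stretches before the transcription start of IER2, CSRNP1, MAFF and IER5 are shown. The serum response of the first 3 is described below, and serum did not detectably change the level of IER5. These stretches were picked by hand, and any link between their letters and the responses was not tested. They are the 250 bases before a RefSeq start (build GRCh38.p14), written 5′ to 3′ on the gene's strand. Capitals mark the core of the cAMP response element (TGACG) and an ETS-type sequence (CCGGAA), each on either strand.
IER2, chr19:13150161-13150410, plus strand: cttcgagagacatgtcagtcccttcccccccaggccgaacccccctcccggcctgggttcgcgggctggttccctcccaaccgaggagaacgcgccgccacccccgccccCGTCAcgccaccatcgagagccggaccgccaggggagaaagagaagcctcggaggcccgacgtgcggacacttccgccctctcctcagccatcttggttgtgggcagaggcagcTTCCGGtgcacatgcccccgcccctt
CSRNP1, chr3:39153592-39153841, minus strand: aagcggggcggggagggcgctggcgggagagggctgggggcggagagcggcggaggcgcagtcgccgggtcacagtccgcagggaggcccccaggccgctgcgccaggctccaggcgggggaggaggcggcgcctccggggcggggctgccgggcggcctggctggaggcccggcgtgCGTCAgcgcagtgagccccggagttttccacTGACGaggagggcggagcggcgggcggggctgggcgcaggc
MAFF, chr22:38201744-38201993, plus strand: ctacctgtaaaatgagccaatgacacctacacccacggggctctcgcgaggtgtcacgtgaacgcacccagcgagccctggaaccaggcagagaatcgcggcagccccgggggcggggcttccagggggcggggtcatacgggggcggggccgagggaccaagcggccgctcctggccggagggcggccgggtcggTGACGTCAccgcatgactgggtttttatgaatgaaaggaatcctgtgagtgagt
IER5, chr1:181088450-181088699, plus strand: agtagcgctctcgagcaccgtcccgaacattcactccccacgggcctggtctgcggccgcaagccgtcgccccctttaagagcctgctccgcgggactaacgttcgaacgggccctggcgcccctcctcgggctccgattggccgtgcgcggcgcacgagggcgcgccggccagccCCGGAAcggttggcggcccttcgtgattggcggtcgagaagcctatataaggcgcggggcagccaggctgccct

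Promoter windows (250 bases before and 50 after the start) were matched for 6 of the 8 members, all but IER3 and ARC, and MAFF and CSRNP1 had 2 starts each, which gave 8 windows. The MAFF window shown held the full palindrome TGACGTCA at -54 to -47 from its start, a sequence found in 1.85% of 35116 RefSeq windows and in 7.02% of 57 windows of 45 other immediate-early genes. The core TGACG, which the palindrome contains on both strands, stood in 3 of the 8 windows, those shown for IER2, CSRNP1 and MAFF. It stood in 24.6% of all windows and 47.4% of the other immediate-early windows. The windows of CSRNP1 and MAFF that are not shown did not hold it. CCGGAA stood in 4 of 8, in IER2, IER5, PHLDA1 and, just after the start, MAFF, against 17.2% of all windows and 10.5% of the other immediate-early windows. GGGCGG, the GC box, stood in 6 of 8, against 45.0% of all and 64.9% of the other immediate-early windows. None of the 8 held a CArG box (the serum response factor motif; 1.29% of all and 5.26% of the other immediate-early windows), TATAAA (11.5% and 31.6%) or TGANTCA (7.71% and 3.51%). The NF-kB motif stood in 2 of 8, the second window each of CSRNP1 and MAFF, against 11.3% of all and 24.6% of the other immediate-early windows. All motifs were searched on both strands, and a match describes the letters of the window alone.

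IER2, a small nuclear protein, was among the members that rose in both lines. In shCDK8 cells it read 10.28 and 10.48 with serum, against 9.23 and 9.43 in starved cells. In shControl cells it read 10.90 and 10.94 with serum, against 9.58 and 9.56 in starved cells. No serum array overlapped a starved array in either line, and both serum arrays of shCDK8 cells lay below those of shControl cells. The rise was 2.07-fold in shCDK8 cells (log2 1.05 ± 0.09 SE, adjusted p = 5.61e-04) and 2.54-fold in shControl cells (log2 1.35 ± 0.09, adjusted p = 5.85e-05), the 19th largest change of all genes in each line. After serum IER2 was 1.46-fold lower in shCDK8 than in shControl cells (log2 -0.54 ± 0.09, adjusted p = 0.00306). In starved cells the difference was -0.24 ± 0.09 and did not pass (adjusted p = 0.112), though it did when limma's prior variance followed intensity (0.0216).

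IER5 and IER5L, relatives of IER2, did not pass in either serum comparison. IER5, which takes part in activating the heat shock factor HSF1, read 9.46 and 9.41 in serum-treated and 9.51 and 9.63 in starved shCDK8 cells, against 9.22 and 9.22 in serum-treated and 9.18 and 9.32 in starved shControl cells. All 4 shCDK8 arrays lay above all 4 shControl arrays. Serum moved IER5 by -0.14 in shCDK8 cells (95% interval -0.31 to 0.03) and by -0.03 in shControl cells (-0.19 to 0.14). It was the 1 member with a higher level in shCDK8 cells, 1.25-fold in starved cells (log2 0.32 ± 0.07, adjusted p = 0.0195), with 0.21 ± 0.07 after serum (adjusted p = 0.1003, and 0.0263 when the prior variance followed intensity). Averaged over both times it was higher by 0.27 ± 0.05 (adjusted p = 0.00497). The starved call did not survive leaving out array 1 of starved shControl (adjusted p = 0.117) or array 2 of starved shCDK8 (0.130), when the fit held just the arrays compared (0.0504) and with all probe sets fitted together (0.0661).

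IER5L, the closest named relative of IER5, spanned 8.71 to 8.86 over the 8 arrays, the narrowest range of the members. Its serum changes were 0.04 in shCDK8 cells (95% interval -0.10 to 0.19) and 0.02 in shControl cells (-0.13 to 0.16). The lines differed by -0.06 after serum and by -0.08 in starved cells, and both differences missed the threshold.

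CSRNP1, a cysteine- and serine-rich nuclear protein that binds DNA and was first described as induced by AXIN1, had the largest serum change of the 8. In shCDK8 cells it read 8.66 and 8.94 with serum, against 7.47 and 7.59 in starved cells. In shControl cells it read 9.56 and 9.50 with serum, against 7.99 and 7.86 in starved cells. The 4 groups did not overlap one another. CSRNP1 rose 2.40-fold in shCDK8 cells (log2 1.27 ± 0.10, adjusted p = 3.23e-04) and 3.04-fold in shControl cells (log2 1.60 ± 0.10, adjusted p = 3.76e-05). Its level was lower in shCDK8 cells at both times, by 0.73 ± 0.10 after serum (1.66-fold, adjusted p = 9.82e-04) and by 0.39 ± 0.10 in starved cells (1.31-fold, adjusted p = 0.0272). The starved difference lost the threshold without any 1 of the 4 starved arrays, array 1 or 2 of shCDK8 (adjusted p = 0.155 and 0.0593) or array 1 or 2 of shControl (0.147 and 0.0554), and with all probe sets fitted together (0.0991).

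MAFF, a small MAF protein that binds DNA as a dimer and has no activation domain of its own, moved by similar amounts in both lines. In shCDK8 cells it read 7.13 and 7.27 with serum, against 6.73 and 6.84 in starved cells. In shControl cells it read 7.41 and 7.27 with serum, against 6.96 and 6.93 in starved cells. The starved MAFF levels of both lines lay below the array medians. The serum arrays lay above the starved arrays in each line, with changes of 0.41 ± 0.08 in shCDK8 and 0.39 ± 0.08 in shControl cells that did not pass singly (adjusted p = 0.120 and 0.107). Averaged over both lines MAFF rose by 0.40 ± 0.06 (1.32-fold, adjusted p = 0.00969). That call was lost on leaving out array 1 of starved shCDK8 (adjusted p = 0.0576) or array 2 of starved shControl (0.0554), and with all probe sets fitted together (0.0597).

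IER3, a membrane-anchored target and partner of ERK that affects cell survival, read 11.24 and 11.35 in serum-treated and 10.93 and 10.83 in starved shCDK8 cells, against 11.48 and 11.47 in serum-treated and 11.00 and 10.91 in starved shControl cells. In each line the serum arrays lay above the starved arrays. The change was 0.42 ± 0.07 in shCDK8 cells, which did not pass (adjusted p = 0.0798), and IER3 rose by 0.52 ± 0.07 in shControl cells (1.44-fold, adjusted p = 0.0133). The shControl call ended without any 1 of the 4 shControl arrays, serum array 1 or 2 (adjusted p = 0.110 and 0.111) or starved array 1 or 2 (0.0604 and 0.142), and with all probe sets fitted together (0.0856). In shCDK8 cells IER3 did pass when limma's prior variance followed intensity (adjusted p = 3.48e-04) and when genes below the 25th percentile were dropped (0.0448). Averaged over both lines it rose by 0.47 ± 0.05 (1.39-fold, adjusted p = 0.00187). IER3 had 2 further probe sets, identical to each other on every array, with changes of 0.39 in shCDK8 and 0.47 in shControl cells.

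PHLDA1, a pleckstrin homology-like domain protein linked to apoptosis and receptor signalling, spanned 11.10 to 11.36 over the 8 arrays. Serum moved it by 0.14 ± 0.06 in shCDK8 cells (adjusted p = 0.525) and by 0.15 ± 0.06 in shControl cells (adjusted p = 0.539), with serum arrays above starved arrays in both. Averaged over both lines the change was 0.15 (adjusted p = 0.215, and 0.0198 when the prior variance followed intensity). Between the lines it differed by -0.07 after serum and by -0.06 in starved cells, and both missed the threshold.

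**Figure D1:**
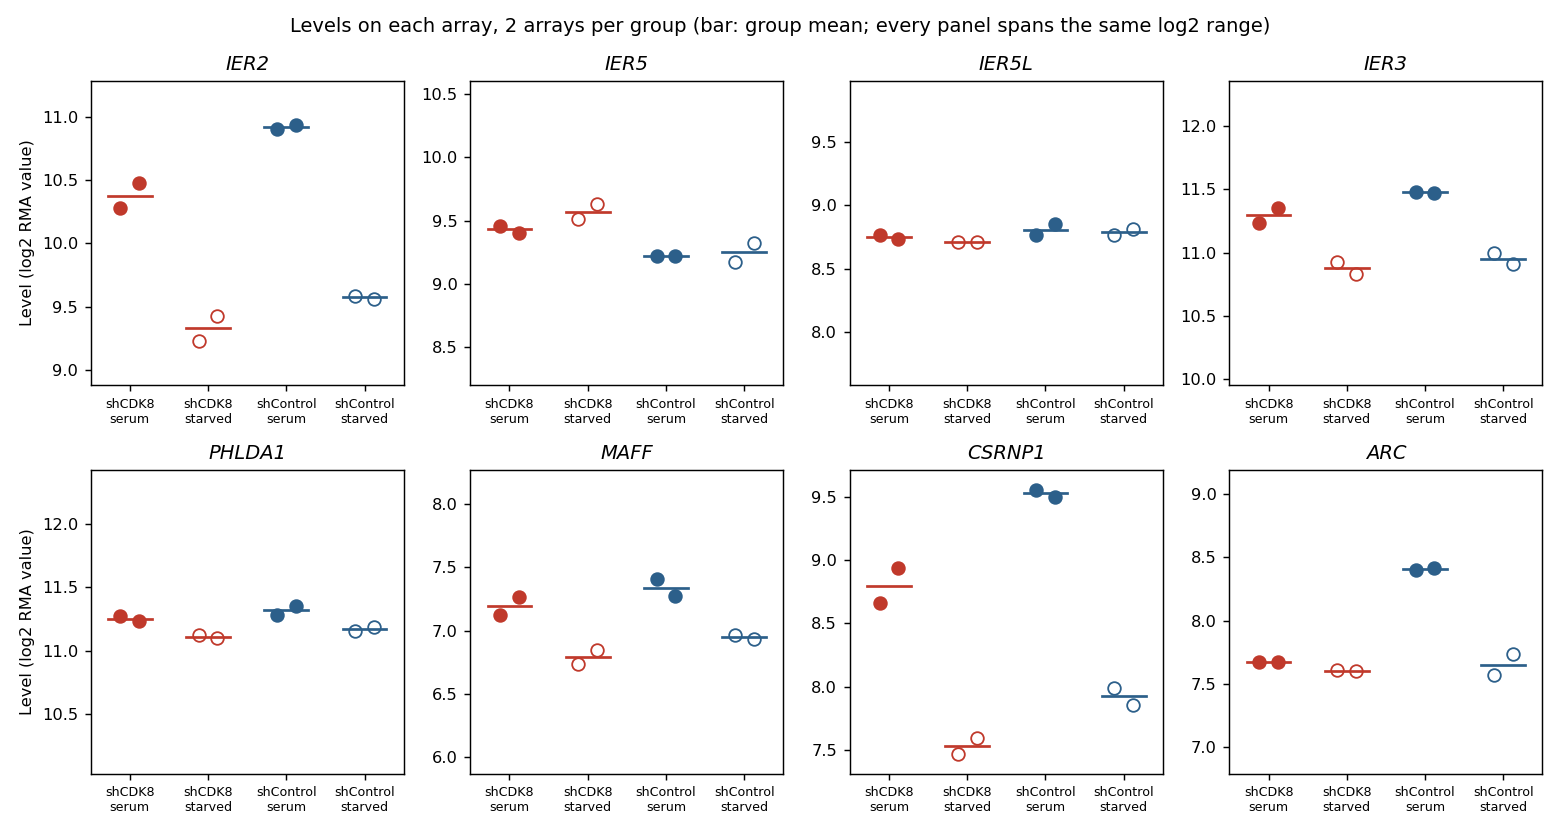
Log2 level of each member (vertical axis) on the 8 arrays, with filled points for serum-treated and open points for starved cells, red for shCDK8 and blue for shControl, and a bar at the group mean. ARC stands near 8.4 on the 2 serum arrays of shControl cells and between 7.57 and 7.74 on the other 6, and CSRNP1 and IER2 are lower in serum-treated shCDK8 than in serum-treated shControl cells.

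ARC, the activity-regulated cytoskeletal protein known from synapses, where it steers the uptake of glutamate receptors, was raised by serum in shControl cells. It read 7.67 and 7.68 in serum-treated and 7.61 and 7.60 in starved shCDK8 cells, against 8.40 and 8.41 in serum-treated and 7.57 and 7.74 in starved shControl cells. The serum-treated shControl arrays stood apart from the other 6. ARC rose 1.68-fold in shControl cells (log2 0.75 ± 0.07, adjusted p = 0.00101), where its change was the 42nd largest of all genes. In shCDK8 cells the change was 0.07 ± 0.07 (95% interval -0.09 to 0.23, adjusted p = 0.777), and its rank was 4098. After serum ARC was 1.66-fold lower in shCDK8 than in shControl cells (log2 -0.73 ± 0.07, adjusted p = 1.37e-04), and in starved cells the difference was -0.05 ± 0.07 (adjusted p = 0.738).

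Counted together, 2 of the 8 members, IER2 and CSRNP1, rose with serum in shCDK8 cells and none fell, where 0.25% of all genes rose and 0.00543% fell. In shControl cells 4 of 8 rose, IER2, CSRNP1, IER3 and ARC, and none fell, where 0.424% of all genes rose and 0.038% fell. The median change of the 8 was 0.27 in shCDK8 and 0.46 in shControl cells, and over all genes it was -0.01 in each. Genes of this kind are chosen for being serum-inducible, so the rise itself was known beforehand. Serum arrays lay wholly above starved arrays for 7 members in shCDK8 cells and 6 in shControl cells, where 19.1% and 16.2% of all genes did so, and wholly below for IER5 in shCDK8 cells and for none in shControl cells, where 22.2% and 23.5% did. Averaged over both lines 5 of 8 rose, the same 4 and MAFF, and none fell, where 0.684% of all genes rose and 0.076% fell. With a minimum change of 1.5-fold built into the test, 1 member passed in shCDK8 cells, 2 in shControl cells and 2 in the average. The share of all genes that passed under that setting was not counted. With each array left out in turn the count stayed at 2 in shCDK8 cells, lay between 3 and 4 in shControl cells and between 4 and 5 in the average.

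**Figure D2:**
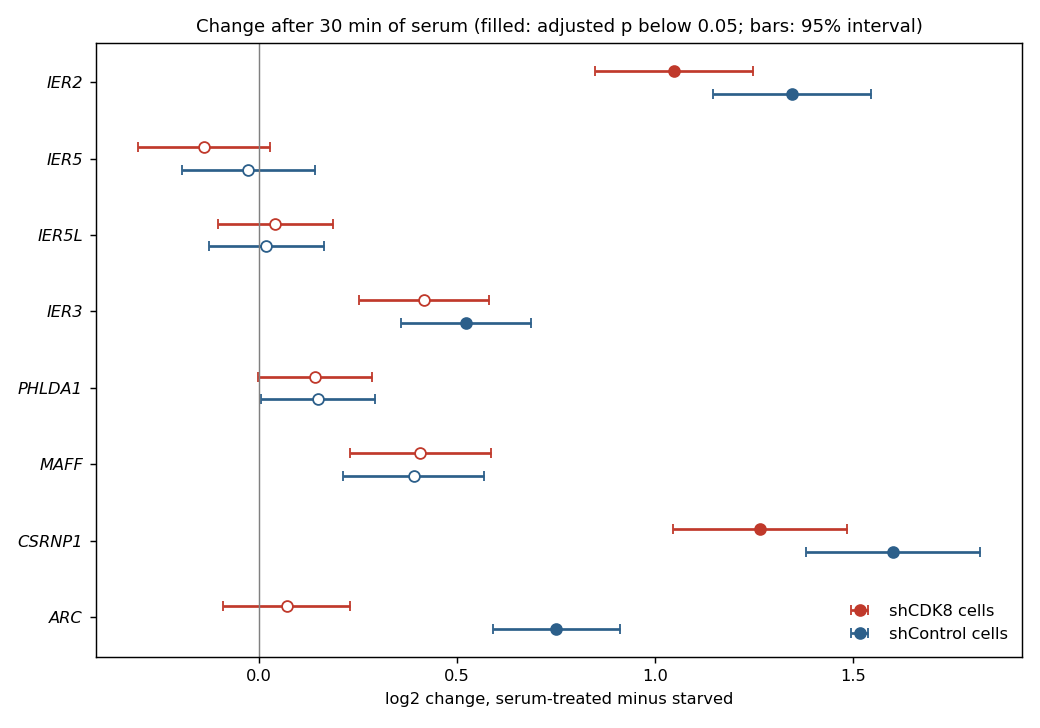
Log2 change with 30 min of serum (horizontal axis, serum-treated minus starved) for each member in shCDK8 (red) and shControl cells (blue), with 95% intervals and filled points where the adjusted p was below 0.05. The ARC interval spans -0.09 to 0.23 in shCDK8 and 0.59 to 0.91 in shControl cells.

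The next comparison asked whether the serum responses differed between the lines. By limma's test, after adjustment, none of the 8 members passed, and no gene did (0% of all genes in either direction). At an unadjusted p below 0.05 there were 3 of 8 members, where 3.82% of all genes reached it. As the members were chosen with earlier results known, that share is a description and no test of them. ARC had the largest difference of the 8, -0.68 ± 0.10 (95% interval -0.91 to -0.46, unadjusted p = 6.37e-05, adjusted p = 0.203), the 12th lowest of all genes. It passed when the prior variance followed intensity (adjusted p = 0.0282) and in none of the other alternatives, and with each array left out in turn the difference lay between -0.76 and -0.60. CSRNP1 differed by -0.34 ± 0.14 (unadjusted p = 0.0366) and IER2 by -0.30 ± 0.13 (unadjusted p = 0.0407), both with an adjusted p of 1.00. With each array left out in turn these differences lay between -0.48 and -0.20 for CSRNP1 and between -0.40 and -0.20 for IER2.

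The other 5 differences were small beside their intervals. They were -0.11 for IER5 (95% interval -0.35 to 0.13), -0.11 for IER3 (-0.34 to 0.12), -0.01 for PHLDA1 (-0.21 to 0.19), 0.02 for MAFF (-0.23 to 0.27) and 0.02 for IER5L (-0.18 to 0.23). Among 56 other immediate-early genes none passed either, and their median difference was -0.12, against -0.11 for the 8 members and 0.01 for all genes. The smallest p-values in that list were those of PTGS2, the inducible cyclooxygenase (-1.32 ± 0.18), CCN2, a secreted matrix protein (0.87 ± 0.12), the phosphatase DUSP2 (-1.13 ± 0.17) and the transcription factor EGR3 (-1.10 ± 0.17), all at an adjusted p of 0.203 or 0.295. PTGS2 read below the array medians on every array, at 6.06 and 5.90 in serum-treated shControl cells and 4.31 to 4.88 in the other groups.

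**Figure D3:**
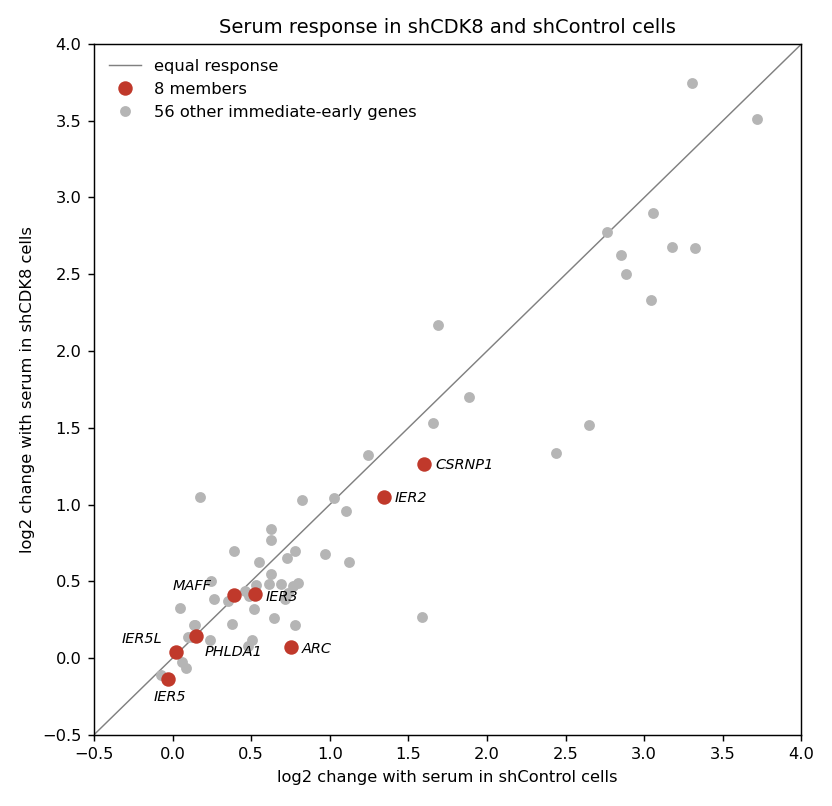
Log2 change with serum in shCDK8 cells (vertical axis) and in shControl cells (horizontal axis) for the 8 members (red, named) and 56 other immediate-early genes (grey), with the line of equal response. ARC lies below the line, at 0.07 in shCDK8 and 0.75 in shControl cells, and MAFF and PHLDA1 lie close to it.

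In serum-treated cells 3 of the 8 members were lower in shCDK8 than in shControl cells, ARC, CSRNP1 and IER2, and none was higher, where 6.54% of all genes fell and 7.7% rose. In starved cells CSRNP1 fell and IER5 rose, where 6.28% of all genes fell and 7.13% rose. These shares are a description too, given how the members were chosen. With a minimum change of 1.5-fold built into the test, no member passed at either time, and the share of all genes was not counted. The count of 3 after serum was the same with each array left out in turn, and that of 2 in starved cells was 0 without starved array 1 of shControl or starved array 2 of shCDK8, and 1 without starved array 2 of shControl or starved array 1 of shCDK8. Over both times IER2, CSRNP1 and ARC fell, by 0.39, 0.56 and 0.39 on the log2 scale, and IER5 rose, where 11.3% of all genes fell and 12% rose. Arrays of shCDK8 cells lay wholly below those of shControl cells for 6 members after serum and 5 in starved cells, where 28% and 27.7% of all genes did so, and wholly above for IER5 at both times, where 25.9% and 24.4% did. Of the members that did not pass after serum, IER3 was at -0.18 ± 0.07 (adjusted p = 0.146, and 0.0194 when the prior variance followed intensity) and MAFF at -0.14 ± 0.08 (0.308).

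**Figure D4:**
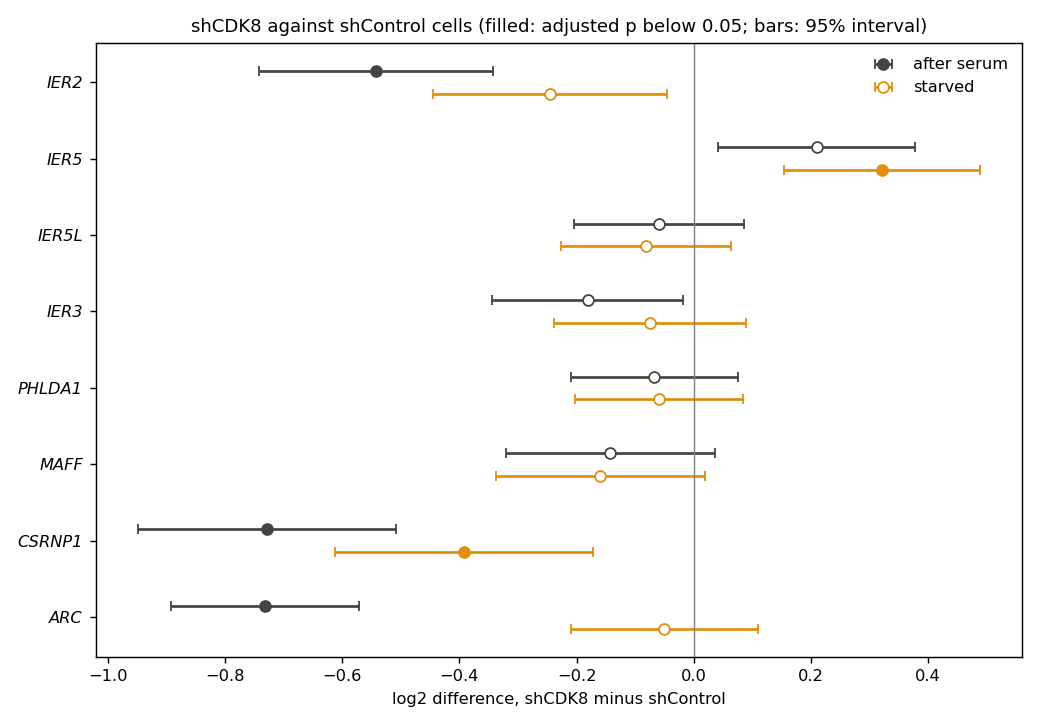
Log2 difference between the lines (horizontal axis, shCDK8 minus shControl) for each member after serum (grey) and in starved cells (orange), with 95% intervals and filled points where the adjusted p was below 0.05. ARC is at -0.73 after serum and at -0.05 in starved cells, and IER5 is above 0 at both times.

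The order of the 4 group means was the same for 6 members, IER2, IER3, PHLDA1, MAFF, CSRNP1 and ARC: serum-treated shControl highest, then serum-treated shCDK8, starved shControl and starved shCDK8 cells. That order was held by 3.07% of all genes and by 22 of the 56 other immediate-early genes. Serum groups above starved groups were known beforehand for genes chosen as serum-inducible. Of the 6, CSRNP1 alone passed between the lines in starved cells, and the ARC difference there changed sign with an array left out. Arrays of neighbouring groups in this order overlapped for ARC among the lower 3 groups and for IER3 between the starved groups, and for the other 4 members they did not overlap. IER5 was highest in starved shCDK8 cells, then serum-treated shCDK8, starved shControl and serum-treated shControl cells, an order held by 6.26% of all genes, and its 2 shControl groups overlapped. IER5L was highest in serum-treated shControl cells, then starved shControl, serum-treated shCDK8 and starved shCDK8 cells, an order held by 8.6% of all genes, and its 2 shControl groups overlapped. The serum-treated groups of the lines overlapped as well for IER5L, with shCDK8 array 1 at 8.767 above shControl array 1 at 8.764.

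Genes with the most similar pattern over the 8 arrays were sought among 1297 genes whose group means spanned at least 0.5, by Pearson's r, as a description in which the arrays share the same 4 groups. For CSRNP1 and IER2 the closest was PMAIP1, a pro-apoptotic BCL2 family gene (r = 0.999 and 0.995), and it was also among the 3 closest to MAFF (0.973) and IER3 (0.981). TENT5A was the closest to MAFF (0.980), and the second closest to CSRNP1 (0.987). For IER3 the polo-like kinase PLK3 came first (0.983), followed by the phosphatase DUSP5 (0.982). ARC was closest to ING1 (0.971), the cyclooxygenase PTGS2 (0.958), whose levels lay below the array medians, and ANKRD37 (0.955). The genes closest to IER5 were GAB2 (0.965), PIK3R3 (0.951) and TGFB2 (0.948). IER5 spanned 0.35 in its group means, less than the 0.5 asked of the candidates. PHLDA1 and IER5L spanned 0.21 and 0.10, and their closest genes were MIR21 (0.962) and TRAK2 (0.918).

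The wider immediate-early list held 58 genes, of which 56 were measured. This list too was chosen with earlier results of these data known, so shares over all genes beside its counts are a description. With serum 27 of them rose in shCDK8 cells and 37 in shControl cells, where 0.25% and 0.424% of all genes rose. None fell in either, and the median change was 0.52 in shCDK8 and 0.70 in shControl cells. The largest rises were those of the AP-1 subunits FOS (log2 3.74) and FOSB (2.90), the matrix protein CCN1 (3.51) and the nuclear receptor NR4A2 (2.77) in shCDK8 cells, and of CCN1 (3.72), NR4A3 (3.32), FOS (3.30) and the transcription factor ATF3 (3.18) in shControl cells. CSRNP1, at 1.27 in shCDK8 and 1.60 in shControl cells, was below each of these. Between the lines 14 rose and 22 fell after serum, where 7.7% of all genes rose and 6.54% fell. In starved cells 13 rose and 14 fell, where 7.13% of all genes rose and 6.28% fell. The kinase PLK2 had the largest difference of the list at both times, 4.01-fold higher in shCDK8 cells after serum and 5.65-fold higher in starved cells. After serum the phosphatase DUSP2 (log2 -1.58) and PTGS2 (-1.23) were lower in shCDK8 cells and the transcription factor KLF4 (1.38) was higher. In starved cells FOS and EGR1, a zinc finger transcription factor, were lower (log2 -1.25 each) and the Notch target HES1 was higher (1.18).

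Of 6 close relatives of the members measured, MAFG, MAF, CSRNP2, CSRNP3, PHLDA2 and PHLDA3, none passed with serum in either line. Of all genes, 0.25% rose with serum in shCDK8 cells and 0.424% in shControl cells. CSRNP2, a paralog of CSRNP1, changed by 0.20 ± 0.06 in shCDK8 cells (adjusted p = 0.427) and by 0.06 in shControl cells, and MAFG, a small MAF like MAFF, by 0.10 in shCDK8 and 0.12 in shControl cells. PHLDA2 changed by -0.01 in shCDK8 and by 0.13 in shControl cells, and PHLDA1 by 0.14 in shCDK8 and by 0.15 in shControl cells, and no difference between relatives and members was tested. After serum CSRNP2 was higher in shCDK8 than in shControl cells by 0.35 ± 0.06 (adjusted p = 0.00508), opposite in sign to CSRNP1. PHLDA2, an imprinted relative of PHLDA1, was lower in shCDK8 cells by 0.50 ± 0.06 after serum (adjusted p = 5.83e-04) and by 0.36 ± 0.06 in starved cells (adjusted p = 0.00397). Between the lines, 1 of the 6 rose and 1 fell after serum, where 7.7% of all genes rose and 6.54% fell. In starved cells 1 of the 6 fell, where 6.28% of all genes did. These shares are a description too, given how the lists were chosen.

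Partners of small MAF proteins and upstream factors were measured as well. None of the 5 partners of small MAF proteins measured (NFE2L1, NFE2L2, NFE2L3, BACH1 and BACH2) passed with serum in either line. Of all genes, 0.25% rose with serum in shCDK8 and 0.424% in shControl cells. Between the lines 7.7% of all genes rose and 6.54% fell after serum, and 7.13% rose in starved cells. Of the 5 partners, 1 rose and 1 fell after serum, and 1 rose in starved cells. BACH1, a repressor that pairs with small MAFs, was higher in shCDK8 cells by 0.38 ± 0.07 after serum (adjusted p = 0.00448) and by 0.26 ± 0.07 in starved cells (adjusted p = 0.0345), and BACH2 was lower by 0.33 ± 0.09 after serum (adjusted p = 0.0390). Of 8 measured genes for serum response factor, its cofactors and CREB, SRF itself rose, by 0.55 ± 0.08 in shCDK8 cells (adjusted p = 0.0314) and by 0.62 ± 0.08 in shControl cells (adjusted p = 0.00960). After serum 2 of the ETS cofactors differed between the lines, ELK3 by 0.28 ± 0.07 (adjusted p = 0.0332) and ELK4 by -0.25 ± 0.06 (adjusted p = 0.0237), while SRF differed by -0.22 ± 0.08 (adjusted p = 0.121). That was 1 rise and 1 fall among the 8, beside the shares of all genes given above.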

How the data were processed

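Total RNA of 8 HCT116 samples was measured on 1 Affymetrix array each. The deposited values are log2 probe set summaries made by the authors with RMA, per the submitters' processing notes; its version, the build and any joint normalization of the 8 arrays were not given in the sources used here. Groups came from the sample titles. Of 33297 probe sets, 19460 were paired with 1 gene, 1754 with several and 12083 were not listed in the array annotation. Entrez identifiers of 19429 matched a RefSeq table, which changed 0 symbols. The probe set with the highest mean stood for a gene (769 genes had several), leaving 18417 genes. No filter or further normalization was applied.

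A model of 4 group means was fitted to all 8 arrays with limma 3.58.1 in R 4.3.3 (4 residual and 5.49 prior degrees of freedom), and p-values were adjusted by Benjamini-Hochberg over all genes. The CDK8 probe set was fitted with all probe sets. The procedure was run on simulated data in which genes varied independently and shifts were placed in the serum-treated shControl arrays alone. Just the serum comparison in shControl cells was checked. The run therefore does not bear on the other comparisons or on spread shared between genes. The members and lists were chosen with earlier results of these data known. All members were named, with up to 4 genes per comparison from the wider list (the largest changes past the threshold, or the smallest p for the difference of responses), the 3 genes most like each member, and any gene of the lists of relatives, partners and cofactors. Promoter sequences are RefSeq's (GRCh38.p14). Alternatives were an intensity trend or robust variance prior, a fit of just the arrays compared, a block for replicate number, dropping genes below the 25th percentile, cyclic loess, median centring, the mean of probe sets, a minimum change of 1.5-fold, each array left out, and, added after the data were seen, all probe sets fitted together. Replicate numbers did not pair the samples by the labels. The number of arrays limits the precision. Figures were drawn with matplotlib 3.10.9.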

Additional observations from a re-analysis of the deposited data

How the results depend on the processing

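With 2 arrays a group, the calls that turned on 1 array are given with the results. The replicate number as a block left each count of members called as it was (2 and 4 with serum in shCDK8 and shControl cells, 3 after serum and 2 in starved cells between the lines, 0 in the difference of responses). Same-numbered arrays of different groups had deviations correlated between -0.19 and 0.13. Under a minimum change of 1.5-fold the counts were 1 and 2 with serum in shCDK8 and shControl cells, 2 in the average of the lines, and 0 between the lines after serum, in starved cells and in their average. An intensity trend gave 5 between the lines after serum and 1 in the difference of responses. Shares of all genes were counted for the main fit alone, so no share stands beside the counts of these alternatives. Between the lines in starved cells the count was 1 with the compared arrays alone, 0 with all probe sets fitted together, and 0 to 2 with each array left out. Of 984 alternative values for single members, 932 kept direction and call, 32 lost the threshold, 8 gained it and 12 changed sign, all 12 with an array left out and none past the threshold. With an array left out, these were IER5 (-0.099 to 0.046) and IER5L (-0.027 to 0.065) with serum in shControl cells, ARC between the lines in starved cells (-0.13 to 0.033), and the differences of responses of IER5L (-0.024 to 0.069), PHLDA1 (-0.043 to 0.028) and MAFF (-0.054 to 0.088). The causes were not tested.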
